A study of Mus musculus with 14 samples.

Results

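The 4 Hox clusters of the mouse were followed across every list of called chromatin regions in the study. Members were all regions that overlapped by at least 1 bp a window around Hoxa (chromosome 6, 52.08 to 52.28 Mb), Hoxb (chromosome 11, 96.02 to 96.26 Mb), Hoxc (chromosome 15, 102.72 to 102.89 Mb) or Hoxd (chromosome 2, 74.48 to 74.63 Mb), all in build mm9. These windows of 200, 240, 170 and 150 kb held 286 of the 201448 regions in the 11 lists. The clusters carry 38 of the listed Hox genes, 10 in Hoxa, 10 in Hoxb, 9 in Hoxc and 9 in Hoxd. No mm9 annotation was used, so a region is given by its position and is not assigned to a gene. Gene order is that of the RefSeq table for GRCm38, whose coordinates were not used.

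The study used chromatin immunoprecipitation and sequencing in a mouse model of Group 3 medulloblastoma, a cerebellar tumour driven by Myc. All groups used here are labelled p53-/-;p18-/-, and the series describes tumour spheres that over-express Myc, with Ezh2 removed by a CAS9 vector. A WT mixed background that the series also names is on no label used here. The control tumour cells, labelled Cas9, were p53-/-;p18-/-, and the knockout tumour cells, labelled Ezh2KO, were p53-/-;p18-/-;Ezh2-/-. Each was profiled for trimethylated lysine 27 (H3K27me3), trimethylated lysine 4 (H3K4me3) and acetylated lysine 27 (H3K27ac) of histone H3. Neurospheres of p53-/-;p18-/- genotype were profiled with an antibody to Cas9 (labels NSCas9U6, NSCas9Suz12F1 and NSCas9Suz12F2) or to Gfi1 (labels NSCas9Gfi1 and NSSuz12F2Gfi1). U6, F1 and F2 are not explained in the labels. One protocol is given for all of them: retroviral infection for 2 days, sorting of RFP+/GFP+ cells, culture and transplantation into the cortex of CD-1 nu/nu mice, which lack T cells. The labels give no age, no promoter and no statement on whether a line was 1 clone or a pool.

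There was 1 library per group, so no difference below has a replicate check and none was tested. Intervals are Wilson intervals at 95%. They describe counting error alone and treat neighbouring peaks as independent. The lists give regions past a calling threshold, not reads, so depth is unknown and a missing region is not evidence of a missing mark. Neither the Ezh2 deletion nor markers of the labelled cell types could be checked without an mm9 annotation. Region names in the tumour lists are numbered. No number was missing between the first and the last member in any window, but in the H3K27ac list of Cas9 cells 3 numbers were missing between the nearest peaks on either side of Hoxa and 6 around Hoxc, and 3 were missing around Hoxc in the knockout list. Those peaks were not analysed here.

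Hox genes encode homeodomain transcription factors that give cells along the body axis their positional identity. They lie in 4 clusters in which the low-numbered genes (such as Hoxb1, Hoxa2 and Hoxd1) act in anterior structures, including the hindbrain, and the high-numbered genes (Hoxa13, Hoxb13, Hoxc13 and Hoxd13) act in posterior trunk, limb and urogenital structures. The cerebellum forms in front of the Hox-expressing hindbrain. Where the genes are silent, Polycomb repressive complex 2 covers whole clusters with H3K27me3. Ezh2 is the catalytic subunit of that complex and Suz12 is a core subunit. H3K4me3 marks active or poised gene starts, and H3K27ac marks active ones and uses the same lysine as H3K27me3. Gfi1 is a zinc finger repressor that drives Group 3 medulloblastoma when activated.

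Hoxa runs from Hoxa2 to Hoxa13 with rising coordinate, so its anterior end lies at the low coordinate. Hoxb runs from Hoxb13 to Hoxb1, Hoxc from Hoxc13 to Hoxc4 and Hoxd from Hoxd13 to Hoxd1, so their anterior ends lie at the high coordinate. The clusters also hold microRNA genes. Their mature sequences from RefSeq (GRCm38.p6) are shown with the seed, bases 2 to 8, in capitals: 4 of the 5 share a seed with a microRNA of another cluster, and miR-615-3p, whose seed occurs in Hoxc alone, is shown beside them. None of the lists measures their RNA.
miR-10a-5p, Hoxb, inside Hoxb3: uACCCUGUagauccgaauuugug
miR-10b-5p, Hoxd, inside Hoxd3 and Hoxd4: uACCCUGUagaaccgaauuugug
miR-196a-5p, Hoxb between Hoxb13 and Hoxb9 and Hoxc between Hoxc10 and Hoxc9: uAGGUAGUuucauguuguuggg
miR-196b-5p, Hoxa between Hoxa9 and Hoxa10: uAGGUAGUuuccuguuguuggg
miR-615-3p, Hoxc, inside Hoxc5: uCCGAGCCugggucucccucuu
The miR-10 pair shares the seed ACCCUGU across Hoxb and Hoxd, and the miR-196 pair shares AGGUAGU across Hoxa, Hoxb and Hoxc.

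H3K4me3 commonly sits at gene starts rich in the dinucleotide CG, so the 250 bases before the start of 1 gene per cluster are shown with CG in capitals. They come from the RefSeq promoter table of build GRCm38.p6, whose positions cannot be set against the mm9 positions below. Of the 38 genes 22 had an entry, and Hoxc4 was the sole match in Hoxc.
Hoxa13, chr6:52260881-52261130, minus strand: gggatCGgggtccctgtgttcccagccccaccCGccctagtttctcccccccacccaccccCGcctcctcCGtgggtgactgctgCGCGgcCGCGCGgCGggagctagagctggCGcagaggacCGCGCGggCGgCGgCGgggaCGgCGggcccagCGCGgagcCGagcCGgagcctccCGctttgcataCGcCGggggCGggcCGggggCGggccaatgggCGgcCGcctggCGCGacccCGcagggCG
Hoxb4, chr11:96318017-96318266, plus strand: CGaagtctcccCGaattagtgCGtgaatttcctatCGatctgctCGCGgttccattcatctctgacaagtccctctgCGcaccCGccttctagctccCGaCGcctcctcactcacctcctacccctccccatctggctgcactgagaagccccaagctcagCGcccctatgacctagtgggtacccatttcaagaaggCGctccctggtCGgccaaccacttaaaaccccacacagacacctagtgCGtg
Hoxc4, chr15:103034145-103034394, plus strand: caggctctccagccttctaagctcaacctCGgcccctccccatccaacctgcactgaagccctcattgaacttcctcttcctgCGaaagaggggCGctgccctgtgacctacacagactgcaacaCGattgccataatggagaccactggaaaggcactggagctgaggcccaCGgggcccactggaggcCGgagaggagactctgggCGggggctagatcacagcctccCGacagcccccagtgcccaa
Hoxd13, chr2:74667975-74668224, plus strand: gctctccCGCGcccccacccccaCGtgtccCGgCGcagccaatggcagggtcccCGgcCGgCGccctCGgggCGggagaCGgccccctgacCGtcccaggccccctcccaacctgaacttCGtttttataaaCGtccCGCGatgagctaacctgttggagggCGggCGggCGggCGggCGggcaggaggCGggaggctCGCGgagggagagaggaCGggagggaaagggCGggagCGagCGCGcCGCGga
The count of CG, which reads the same on both strands, was 35 for Hoxa13, 31 for Hoxd13, 14 for Hoxb4 and 8 for Hoxc4. These are the highest counts among the matched genes of each cluster, and the lowest were 3 (Hoxa9), 2 (Hoxd11) and 7 (Hoxb1). Across all 27025 promoters of this length in the table, 38.2% held at least 10. With fewer than 80% of the genes matched, no comparison of promoter composition was made over the 38 genes.

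In Cas9 tumour cells all 4 clusters lay under H3K27me3 almost from end to end. Called regions covered 88.8% of the Hoxa window, 91.2% of Hoxb, 96.5% of Hoxc and 87.3% of Hoxd, or 691 of 760 kb. In the knockout they covered 8.40%, 2.08%, 5.88% and 11.7%, or 49.4 kb in all. The order of the clusters was Hoxd, Hoxa, Hoxc, Hoxb from most to least covered in the knockout, and Hoxc, Hoxb, Hoxa, Hoxd in Cas9 cells. The plot of window coverage sets these values side by side.

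**Figure D1:**
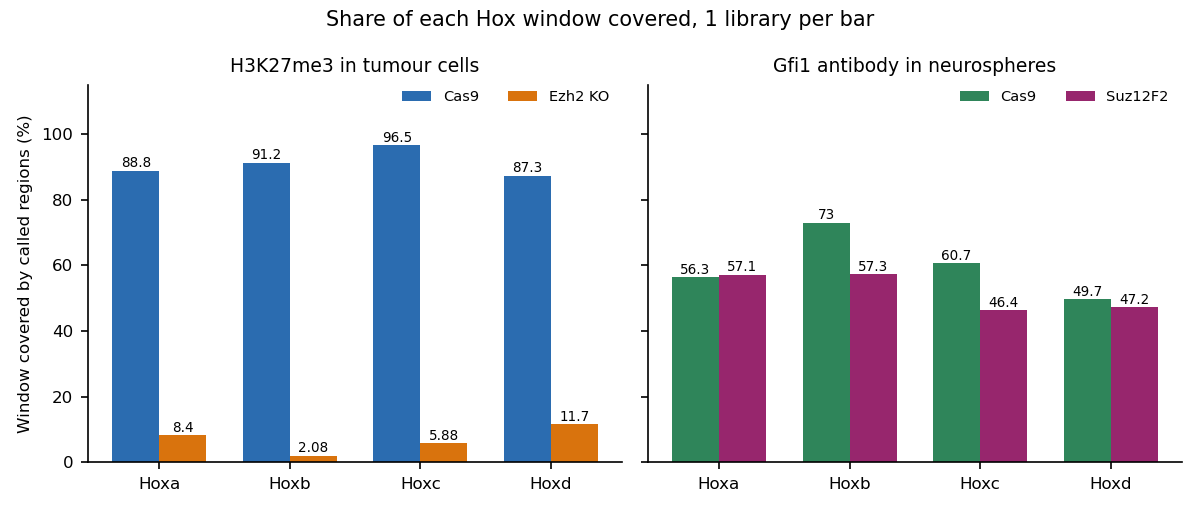
Percent of each Hox window covered by called regions, for H3K27me3 in Cas9 and Ezh2 knockout tumour cells (left) and for the Gfi1 antibody in Cas9 and Suz12F2 neurospheres (right), 1 library per bar and no error bars. H3K27me3 covered 87.3% or more of each window in Cas9 cells and 11.7% or less in the knockout, whereas Gfi1 antibody regions covered between 46.4% and 73.0% in both neurosphere lines.

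The covered length in the knockout was 0.0946 of that in Cas9 cells at Hoxa (178 against 16.8 kb), 0.0229 at Hoxb (219 against 5.00 kb), 0.0610 at Hoxc (164 against 10.0 kb) and 0.134 at Hoxd (131 against 17.6 kb). Over the 4 windows the ratio was 0.0714, against 0.261 over the whole lists (71.4 against 18.6 Mb). The gap between windows and whole lists moved with length called in the knockout alone, which made up 13542 of its 18606 kb and none of its 49.4 kb in the windows. Over the whole list 65.8% of the knockout's H3K27me3 regions touched none in Cas9 cells, whereas in the windows 0 of 17 did (interval 0 to 18.4%). With 91.0% of the windows under H3K27me3 of Cas9 cells, few regions there could lie outside it. Counting only length called in both, the knockout kept 7.14% of the Cas9 cover in the windows and 7.09% over the whole list. Of the 30 Cas9 regions in the windows 23 (76.7%, interval 59.1 to 88.2%) touched no knockout region, against 88.1% of the whole list. With the upper 50% of scores in each list the ratio was 0.0453, and without regions at Cas9 antibody regions, which took away 507 of the 691 kb in Cas9 cells, it was 0.253.

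Each cluster was built around 1 to 3 very long regions in Cas9 cells. Hoxc had the longest H3K27me3 region of the whole list, chr15:102736601-102877600 (141 kb, score 4182). Hoxa had the next, chr6:52099401-52237200 (138 kb, score 4222), and Hoxd the third, chr2:74516201-74611600 (95.4 kb, score 3029). Hoxb was split between chr11:96108401-96182800 (74.4 kb, score 2417), chr11:96183601-96238400 (54.8 kb, score 1431) and chr11:96038801-96079600 (40.8 kb, score 1004). The scores are the authors' own per region and rank regions within 1 list only.

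The other named Cas9 regions lay toward the window ends. In Hoxa they were chr6:52253401-52275000 (21.6 kb, score 667) and chr6:52240001-52245600 (score 126). In Hoxc they were chr15:102880601-102902400 (21.8 kb, score 450), which ran past the anterior edge of the window, chr15:102723601-102731200 (score 128), chr15:102732001-102735800 (score 60) and chr15:102720201-102722400 (score 32, which outscored 12.2% of the list). In Hoxd they were chr2:74501201-74515400 (score 305) and chr2:74492001-74500400 (score 186) on the Hoxd13 side. At Hoxb the fourth region by score was chr11:96024401-96038000 (score 402), and the regions chr11:96012201-96023600 (score 180) and chr11:96256201-96262600 (score 103) crossed the window edges.

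All 17 regions that the knockout list still held lay wholly inside Cas9 H3K27me3. They were short, from 1200 to 6400 bp with a median of 2800 bp, against a list median of 3000 bp. In Hoxa they were chr6:52140201-52143000 (score 39), chr6:52174001-52177200 (49), chr6:52183201-52185200 (40), chr6:52186001-52188400 (33) and chr6:52262801-52269200 (87). The last was the longest of the 17 and lay in the bin next to the posterior edge, 21476 bp from the nearest knockout H3K4me3 peak. It covered 29.6% of the Cas9 region it lay in.

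Hoxb held 2 such regions in its middle bin, chr11:96138001-96141200 (score 41) and chr11:96156801-96158600 (28). Hoxc held chr15:102763201-102766200 (34), chr15:102767201-102768600 (24), chr15:102806001-102808200 (32) and chr15:102843801-102847200 (43). Hoxd held 6 regions, the most of any window. Those on the Hoxd13 side were chr2:74493601-74498000 (60), chr2:74498801-74500000 (22) and chr2:74505401-74508200 (37), and the others were chr2:74541601-74544800 (47), chr2:74573201-74577200 (46) and chr2:74583401-74585400 (37). At the Cas9 region chr2:74492001-74500400 the knockout kept 66.7% of the length, the highest share of the 30.

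Some of the kept H3K27me3 coincided with active marks. Of the 17 regions 7 (41.2%, interval 21.6 to 64.0%) overlapped an H3K4me3 peak of the knockout, against 4.41% of the whole knockout list, and 4 overlapped an H3K27ac peak, against 1.49%. They were 3 of 5 in Hoxa, 0 of 2 in Hoxb, 1 of 4 in Hoxc and 3 of 6 in Hoxd for H3K4me3. The whole list is unlike the windows: 65.8% of its regions touched no Cas9 region, against 0 of 17 here. The windows also held 7.11 H3K4me3 peaks of the knockout per 100 kb. The part of either in these shares was not tested. The median distance to the nearest H3K4me3 peak was 1030 bp, with 8 of 17 within 1 kb and 3 farther than 5 kb.

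**Figure D2:**
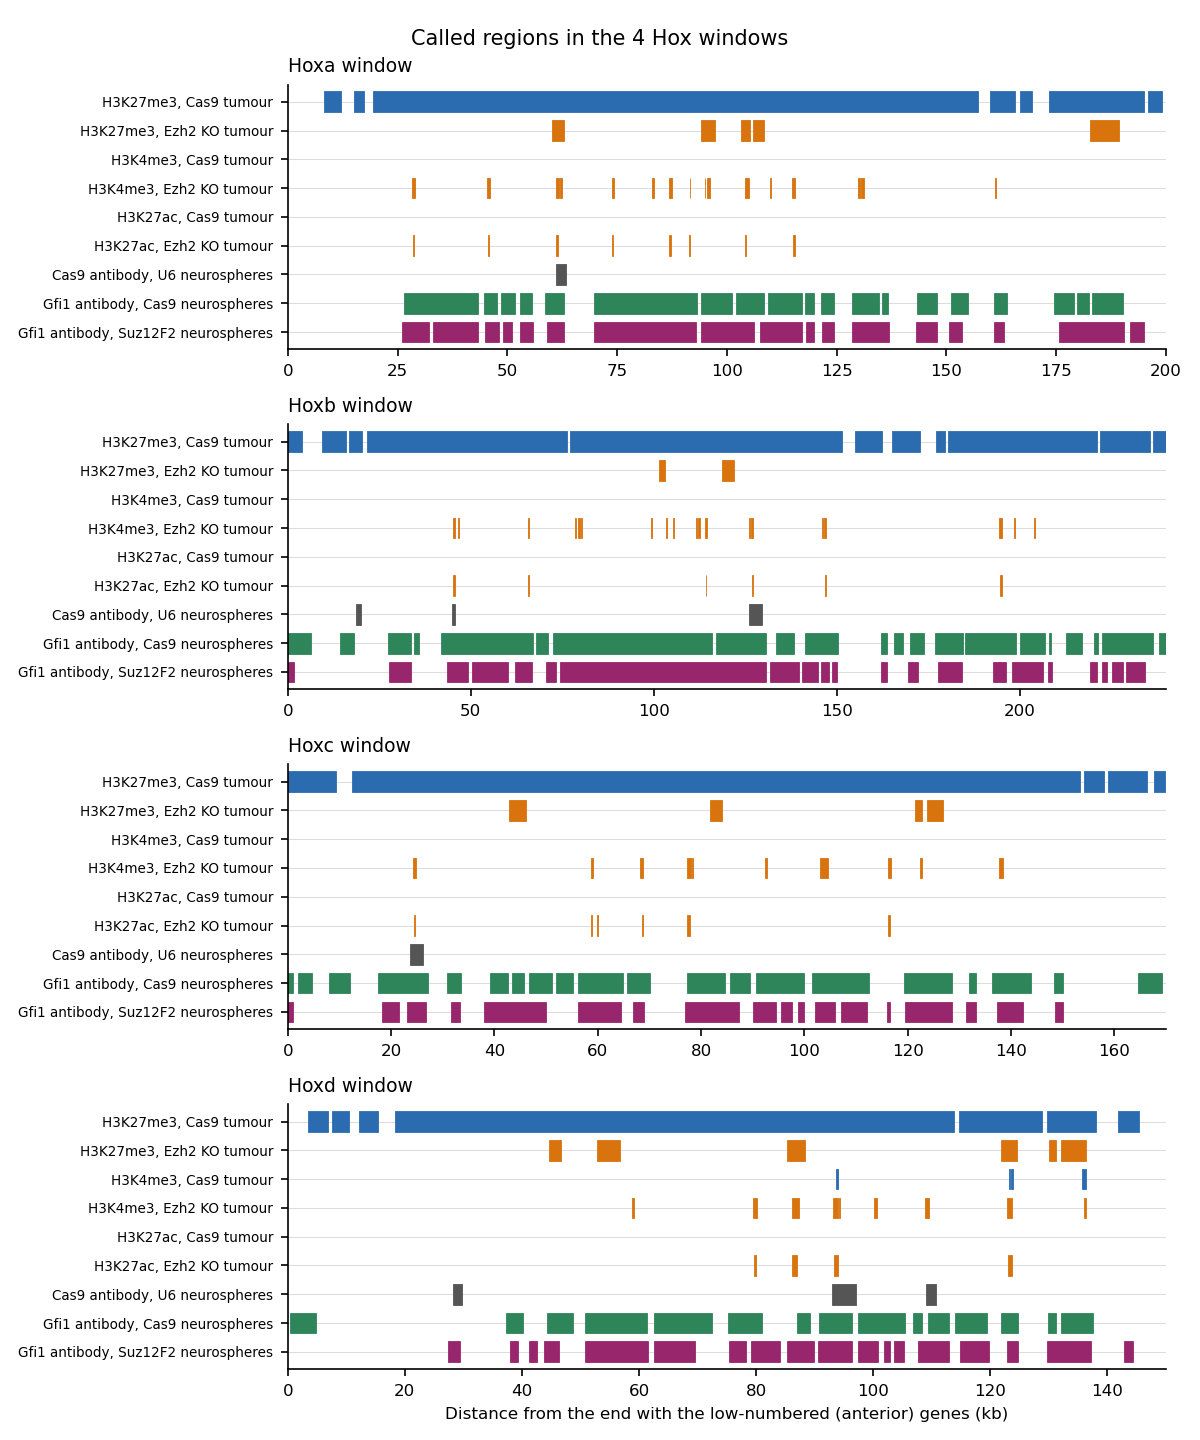
Called regions along the 4 Hox windows, with distance in kb from the end that holds the low-numbered genes on the horizontal axis and 1 row per list. Bars are regions drawn to scale, except that the narrowest peaks are widened to a line so that they can be seen. H3K27me3 fills the Cas9 rows and is left as 17 short bars in the knockout, H3K4me3 is on 4 peaks of Hoxd in Cas9 cells against 54 peaks over all windows in the knockout, and no H3K27ac peak is listed in Cas9 cells against 24 in the knockout.

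H3K4me3 was called at 4 places in Cas9 cells and at 54 in the knockout. The 4 Cas9 peaks all lay in Hoxd, at chr2:74493626-74494368 (743 bp, score 22), chr2:74506081-74506428 (score 12), chr2:74506598-74506829 (score 13) and chr2:74536099-74536351 (score 15). None of the 4 was called in Cas9 cells alone (interval 0 to 49.0%), against 14.6% of the whole Cas9 list. In the knockout the middle pair overlapped 1 peak, chr2:74506228-74507106. The first was shorter in the knockout (269 bp, chr2:74493733-74494001) and the last longer (796 bp, chr2:74536035-74536830).

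Knockout peaks numbered 16 in Hoxa, 19 in Hoxb, 10 in Hoxc and 9 in Hoxd, which is between 5.88 (Hoxc) and 8.00 (Hoxa) per 100 kb. Called in the knockout alone were 16, 19, 10 and 6 of them, together 51 of 54 (94.4%, interval 84.9 to 98.1%), against 9.84% of the whole list. Every one of the 54 lay in H3K27me3 of Cas9 cells, against 15.7% of the whole knockout list and 48.2% of its peaks called in the knockout alone. The count of 51 was 10 with the upper 50% of scores, 31 after merging peaks within 5 kb and 2 among peaks of at least 1 kb. With 91.0% of the windows under H3K27me3, peaks there could hardly lie elsewhere. Hoxa, Hoxb and Hoxc held no Cas9 H3K4me3 peak, so every knockout peak there was bound to be called alone.

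The highest-scoring H3K4me3 peaks of Hoxa were chr6:52141115-52141868 (score 31), chr6:52194735-52195528 (30) and chr6:52108348-52108927 (29). Those of Hoxb were chr11:96180102-96180689 (28), chr11:96112792-96113551 (19) and chr11:96145492-96145956 (19). Those of Hoxc were chr15:102812022-102812713 (25), chr15:102751559-102752347 (20) and chr15:102785331-102786886 (20), the last being the longest of all at 1556 bp. Those of Hoxd were chr2:74536035-74536830 (30), chr2:74542715-74543958 (28) and chr2:74506228-74507106 (25).

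Most of these peaks were weak beside the rest of the genome. The median peak in the windows outscored 25.2% of the knockout list, and 10 of 54 reached the list's median score. Hoxb was lowest, with a median of 11.1% and 1 of 19 at the list median, and Hoxd highest, with 36.6% and 3 of 9. Among peaks called in the knockout alone, however, those of the windows stood higher: 8 of 51 (15.7%) reached the list median, against 18 of 1367 elsewhere (1.32%). The corresponding median lengths were 443 and 238 bp.

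**Figure D3:**
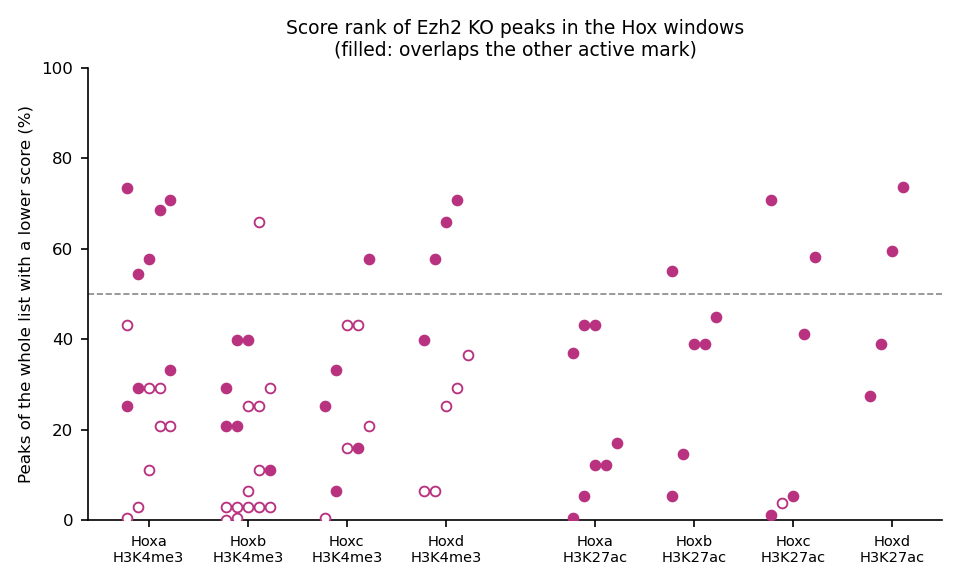
Percent of the whole knockout list with a lower score (vertical axis) for each H3K4me3 and H3K27ac peak of the knockout, by cluster, with the dashed line at the list median and horizontal spread only to separate points. Filled points overlap a peak of the other active mark. Of the H3K4me3 peaks 10 of 54 and of the H3K27ac peaks 5 of 24 lie at or above the line, and the highest-scoring H3K4me3 peaks of Hoxa and Hoxd are filled while the top one of Hoxb is open.

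Peaks gathered in the middle of the windows. Each window was split into 5 equal bins from the anterior end, and summed over the windows the knockout H3K4me3 peaks numbered 4, 10, 22, 11 and 7. Bin 3 held 8 of 16 in Hoxa, 8 of 19 in Hoxb and 4 of 10 in Hoxc, but 2 of 9 in Hoxd, where bin 4 held 4. The outer parts of the windows were free of H3K4me3 over 28.3, 45.2, 24.3 and 58.9 kb at the anterior ends of Hoxa, Hoxb, Hoxc and Hoxd, and over 38.7, 35.7, 31.6 and 13.7 kb at the posterior ends. Where the outermost genes lie in these windows was not measured.

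**Figure D4:**
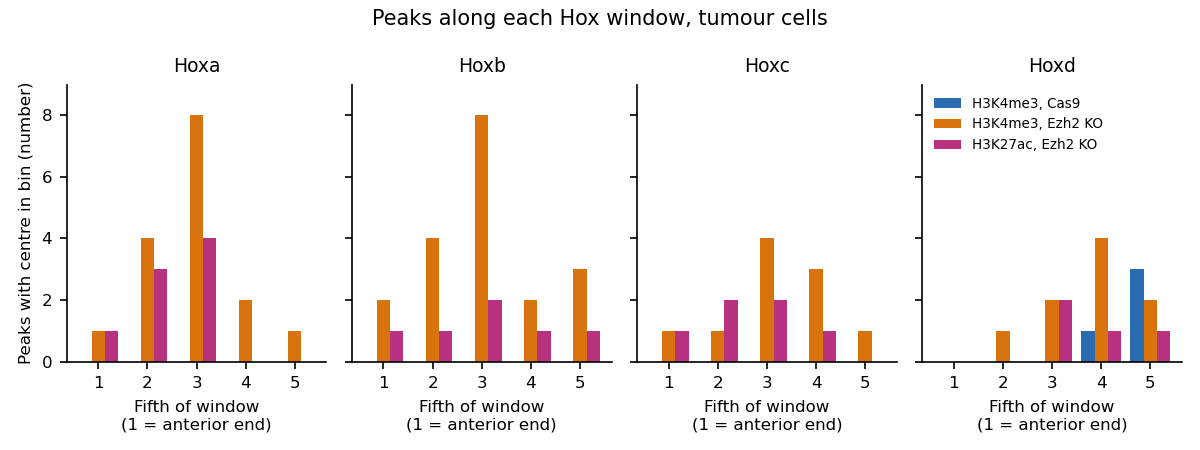
Number of peaks (vertical axis) in 5 equal bins of each window, with bin 1 at the anterior end, for H3K4me3 in Cas9 cells and H3K4me3 and H3K27ac in the knockout. Bin 3 is the tallest for H3K4me3 in Hoxa, Hoxb and Hoxc, bin 4 in Hoxd, and the 4 Cas9 peaks stand in bins 4 and 5 of Hoxd.

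Within the windows the spacing was uneven. The median gap between neighbouring H3K4me3 peaks was 4.75 kb in Hoxa, 3.43 kb in Hoxb, 10.4 kb in Hoxc and 7.15 kb in Hoxd. The longest gaps were 30.0 kb at chr6:52211161-52241144, 47.2 kb at chr11:96065550-96112791, 34.0 kb at chr15:102831222-102865226 and 20.4 kb at chr2:74550534-74570927. The Hoxb gap set a group of 3 peaks near the posterior (Hoxb13) end apart from the other 16.

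H3K27ac was listed at none of the 4 clusters in Cas9 cells, where 7951 peaks were called in all and 8.62% of these had no counterpart in the knockout. The knockout had 8 peaks in Hoxa, 6 in Hoxb, 6 in Hoxc and 4 in Hoxd. All 24 were called in the knockout alone, against 28.1% of the whole list, and all 24 lay in Cas9 H3K27me3, against 8.96%. No Cas9 peak was listed in the windows, so the first share could only be 100%. With 91.0% of the windows under H3K27me3, the second could hardly be low. For Hoxa and Hoxc the count of 0 in Cas9 cells covers listed peaks only, because of the missing numbers given above. The count of 24 was 14 with lists cut to the same number of peaks, 5 with the upper 50% of scores and 0 at 1 kb or more.

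In Hoxa the highest-scoring H3K27ac peaks were chr6:52108484-52108823 (score 17.87), chr6:52166906-52167302 (17.87) and chr6:52195020-52195429 (16.65). In Hoxb they were chr11:96064712-96065365 (20.72), chr11:96214231-96214770 (18.28), chr11:96112836-96113261 (17.06), chr11:96132953-96133240 (17.06), chr11:96194110-96194453 (13) and chr11:96145667-96145838 (11.37). All 14 peaks of these clusters overlapped H3K4me3.

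In Hoxc they were chr15:102812110-102812778 (26), chr15:102773334-102773811 (21.53), chr15:102831034-102831240 (17.47), chr15:102821208-102821414 (11.37), chr15:102829940-102830134 (10.97) and chr15:102865372-102865546 (10.15). In Hoxd they were chr2:74506247-74507043 (27.22), chr2:74543004-74543856 (21.93), chr2:74536012-74536643 (17.06) and chr2:74549953-74550312 (15.03). Over the 4 clusters 23 of 24 (95.8%, interval 79.8 to 99.3%) overlapped H3K4me3, close to the 92.4% of the whole list, and the exception was chr15:102829940-102830134. The Hoxd and Hoxc sets held the top-scoring acetylation of the windows, while no Hoxa peak reached the list median.

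Seen from H3K4me3, fewer than 1 peak in 2 was acetylated. H3K27ac overlapped 8 of 16 H3K4me3 peaks in Hoxa, 6 of 19 in Hoxb, 5 of 10 in Hoxc and 4 of 9 in Hoxd, together 23 of 54 (42.6%, interval 30.3 to 55.8%). That share was below the 61.9% of the whole list. Among H3K4me3 peaks called in the knockout alone the order was the other way round, with 21 of 51 (41.2%, interval 28.8 to 54.8%) in the windows, against 14.3% of such peaks in the whole list and 13.3% (interval 11.6 to 15.2%) of the 1367 outside the windows. Peak size moved with acetylation: the median length was 609 bp with H3K27ac and 331 bp without in the windows, and 659 and 321 bp over the whole list. Its part in these shares was not tested. The share of 42.6% was 64.0% with lists cut to the same number of peaks, 61.8% after merging peaks within 5 kb and 0% at 1 kb or more. The longest H3K27ac peak of the windows had 853 bp, so the value at 1 kb or more could only be 0%. The share of the whole list was not recomputed under these settings.

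Kept H3K27me3 overlapped 9 of the 54 H3K4me3 peaks of the knockout (16.7%, interval 9.02 to 28.7%), against 2.05% of the whole list. Of these 5 lay in Hoxa, 1 in Hoxc and 3 in Hoxd, and none in Hoxb. With lists cut to the same number the share was 33.3%, and at 1 kb or more 50.0%, and the whole-list share was not recomputed for either. Few peaks were left under both settings, and at 1 kb or more there were 2. With the upper 50% of scores the share was 10.0%. Sorted by all 3 marks of the knockout, 19 H3K4me3 peaks carried H3K27ac only, 4 carried H3K27ac and H3K27me3, 5 carried H3K27me3 only and 26 neither. The 4 with all 3 marks were chr6:52141115-52141868 and chr6:52184038-52184970 in Hoxa and chr2:74506228-74507106 and chr2:74542715-74543958 in Hoxd. H3K27ac peaks in kept H3K27me3 were likewise 4 of 24 (16.7%), against 0.959% of the whole list. Whether these marks sat on the same chromosomes or in different cells of the culture was not tested. Kept H3K27me3 covered 49.4 of the 760 kb of the windows, while the whole knockout list spanned 18.6 Mb. Shares of peaks in this mark move with its cover, and the part of cover in the shares of 16.7% was not tested.

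The clusters were also set against the other long H3K27me3 regions of Cas9 cells. Of 231 regions of at least 20 kb, 8 lay in a Hox window. H3K4me3 called in the knockout alone was present in 6 of the 8 (75.0%) and in 57 of the 223 others (25.6%), and H3K27ac called there alone in 6 of 8 and 24 of 223 (10.8%). The Hoxa region held 15 such H3K4me3 peaks, the Hoxb region of 74.4 kb 13, the Hoxc region 10 and the Hoxd region 6, whereas no region elsewhere held more than 4. Per length the pooled values were 8.51 H3K4me3 and 3.91 H3K27ac peaks per 100 kb in the windows and 1.30 and 0.505 elsewhere.

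The contrast did not hold for every region or measure. The Hoxa region of 21.6 kb and the Hoxc region of 21.8 kb held no such H3K4me3 peak. The densest region elsewhere reached 17.9 per 100 kb, above the 17.5 of the densest Hoxb region. Kept H3K27me3 was 6.98% of the pooled length in the windows and 10.7% elsewhere, while the medians over regions were 6.91% and 0%.

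**Figure D5:**
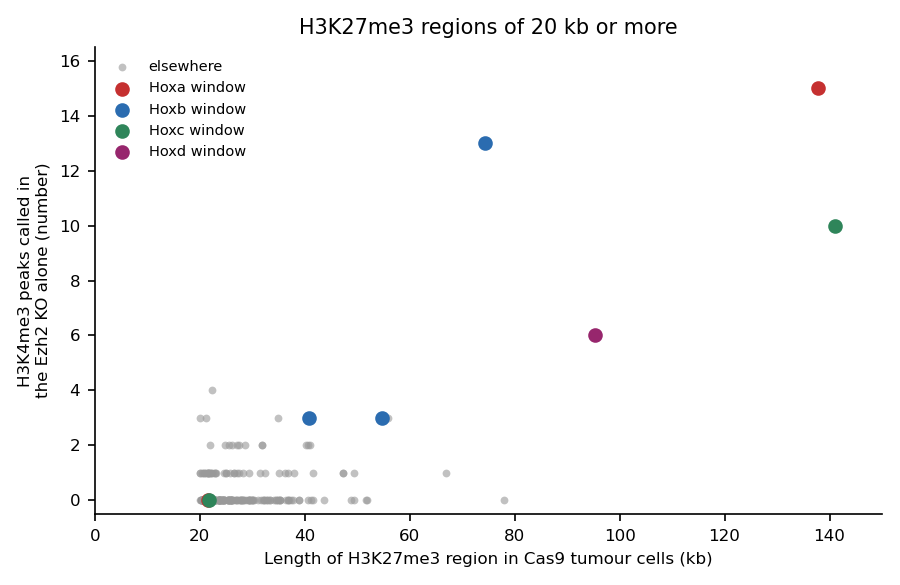
Number of H3K4me3 peaks called in the knockout alone (vertical axis) against the length in kb (horizontal axis) of each H3K27me3 region of at least 20 kb in Cas9 tumour cells, with the 8 regions in Hox windows coloured by cluster and the 223 others in grey. The 4 regions with the most peaks are the Hoxa, Hoxb, Hoxc and Hoxd regions with 15, 13, 10 and 6, and no grey point is above 4.

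In neurospheres, the Cas9 antibody gave 8 regions in the windows under the label U6 and none under Suz12F1 or Suz12F2, whose lists were shorter (916 and 1048 regions, against 2966). The U6 regions were chr6:52141001-52143400 (score 10) in Hoxa, chr11:96130401-96134000 (16), chr11:96214201-96215200 (11) and chr11:96240001-96241400 (11) in Hoxb, chr15:102863801-102866400 (10) in Hoxc, and chr2:74519201-74521000 (9), chr2:74533001-74537000 (16) and chr2:74600201-74601800 (11) in Hoxd. By bin from the anterior end they numbered 4, 1, 1, 2 and 0, so bin 1 held the most, with none of these in Hoxa. This order rests on 8 regions. Of those in bin 1, chr11:96214201-96215200 and chr2:74600201-74601800 were centred 18.9% and 19.3% along their windows, near the bin edge. With the upper 50% of scores, or with lists cut to the same number, there were 2 regions over the 3 labels.

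Of the 8 regions 6 (75.0%, interval 40.9 to 92.9%) overlapped an H3K4me3 peak of the knockout tumour cells, against 51.0% of the U6 list, and 1 overlapped H3K4me3 of Cas9 tumour cells, against 49.2%. The exceptions to the first were chr11:96240001-96241400 and chr2:74600201-74601800, which lay anterior to every H3K4me3 peak of their windows. All 8 lay in H3K27me3 of Cas9 tumour cells, against 25.3%, but with 91.0% of the windows under that mark few regions could lie outside it. A Gfi1 antibody region of Cas9 neurospheres overlapped 6 of 8, close to the 73.8% of the list. The labels name no DNA target for this antibody in the clusters, and what the U6 regions reflect was not tested.

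The Gfi1 antibody covered all 4 clusters in broad blocks in both neurosphere lines. In Cas9 neurospheres it covered 56.3% of Hoxa, 73.0% of Hoxb, 60.7% of Hoxc and 49.7% of Hoxd, and in Suz12F2 neurospheres 57.1%, 57.3%, 46.4% and 47.2%. Such cover was not particular to the clusters, and the whole lists spanned 368 and 294 Mb. Of the H3K27me3 regions of at least 20 kb in Cas9 tumour cells, 8 lay in Hox windows and 223 elsewhere. Their median Gfi1 antibody cover was 67.1% against 88.3% elsewhere in Cas9 neurospheres, and 56.5% against 78.5% in Suz12F2 neurospheres. The ratio of Suz12F2 to Cas9 was 1.01 for Hoxa, 0.785 for Hoxb, 0.764 for Hoxc and 0.949 for Hoxd, 0.862 over the windows and 0.799 over the whole lists. The share of the Cas9 cover that was also called in Suz12F2 neurospheres was 93.1%, 73.3%, 70.5% and 76.7%, so Hoxd, with nearly equal cover in both lines, shared a part of it closer to that of Hoxb and Hoxc than to that of Hoxa. Without regions at Cas9 antibody regions the ratios of Hoxb, Hoxc and Hoxd were 0.555, 0.803 and 0.881, and with the upper 50% of scores that of Hoxd was 1.07. By construction the removal took away 61.8 kb in Cas9 and 82.6 kb in Suz12F2 neurospheres. At Hoxb it took the longest Suz12F2 region (56.2 kb), whereas the longest Cas9 region (43.4 kb) stayed.

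The same block led in both lines in Hoxa, Hoxb and Hoxd, and a different one in Hoxc. In Hoxa the highest-scoring region was chr6:52149801-52173200 (score 1292) in Cas9 and chr6:52149801-52173000 (1389) in Suz12F2 neurospheres, 23.4 and 23.2 kb long. In Hoxb it was chr11:96144201-96187600 (43.4 kb, score 2045) and chr11:96129401-96185600 (56.2 kb, score 2158). In Hoxc the leading regions were chr15:102790001-102799400 (444) and chr15:102840001-102852000 (462), and in Hoxd chr2:74568601-74579200 (491) and chr2:74568401-74579200 (438).

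Next in score in Cas9 neurospheres were chr6:52106401-52123400 (771) and chr6:52189401-52197000 (399) in Hoxa, chr11:96193001-96218000 (1142) and chr11:96129401-96143000 (702) in Hoxb, chr15:102761401-102770800 (439) and chr15:102777401-102788600 (435, tied with chr15:102825201-102833800) in Hoxc, and chr2:74557601-74567400 (371) and chr2:74524601-74532600 (349) in Hoxd. In Suz12F2 neurospheres they were chr6:52174001-52186200 (644) and chr6:52255601-52270400 (640) in Hoxa, chr11:96199801-96209600 (397) and chr11:96053601-96062200 (337) in Hoxb, chr15:102802601-102813200 (458) and chr15:102761401-102770600 (387) in Hoxc, and chr2:74492801-74500400 (353) and chr2:74560401-74567400 (280) in Hoxd. The Hoxa block chr6:52255601-52270400 enclosed the longest H3K27me3 region kept in the knockout tumour cells. Regions that crossed a window edge were chr11:96019401-96021800, chr11:96253601-96261600 and chr15:102889001-102892400 in Cas9 and chr11:96258201-96261600 and chr15:102889001-102892400 in Suz12F2 neurospheres.

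Gfi1 antibody regions found in 1 line alone were few. Called in Cas9 neurospheres alone were 0 of 19 in Hoxa, 5 of 21 in Hoxb, 4 of 20 in Hoxc and 1 of 15 in Hoxd, together 10 of 75 (13.3%, interval 7.41 to 22.8%), against 23.9% of the whole list. In Suz12F2 neurospheres alone they were 1 of 17, 0 of 21, 1 of 18 and 3 of 18, together 5 of 74 (6.76%, interval 2.92 to 14.9%), against 18.6%. Gfi1 antibody regions covered 61.3% and 52.8% of the windows in Cas9 and Suz12F2 neurospheres, while the whole lists spanned 368 and 294 Mb. The part of this dense cover in the low shares was not tested. At Hoxc, 2 of the 4 called in Cas9 neurospheres alone lay in the anterior bin, chr15:102878001-102882000 and chr15:102885401-102888000. Cover of that bin was 59.4% in Cas9 and 29.4% in Suz12F2 neurospheres. At Hoxb the anterior bin had 49.6% and 25.0%, and bin 4 59.6% and 30.8%, while bin 3 had 85.4% and 95.8%.

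Gfi1 antibody regions in the neurospheres overlapped the tumour marks at the clusters as follows. All 75 regions of Cas9 and all 74 of Suz12F2 neurospheres overlapped H3K27me3 of Cas9 tumour cells, against 17.2% and 17.0% of the lists. An H3K4me3 peak of the knockout tumour cells lay in 31 of 75 (41.3%, interval 30.9 to 52.6%) and in 31 of 74 (41.9%, interval 31.3 to 53.3%), against 14.4% and 15.6%. The broad cover of the windows by both kinds of region moves with these counts, and its part in them was not tested.

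Read the other way, 53 of 54 knockout H3K4me3 peaks lay in Gfi1 antibody regions of Cas9 neurospheres, against 87.5% of the list, and 54 of 54 in those of Suz12F2 neurospheres, against 98.1%. The peak outside was chr15:102773301-102773743 in Hoxc. For H3K27ac the counts were 22 of 24, against 88.0%, and 24 of 24, against 98.9%. For kept H3K27me3 they were 17 of 17 in both lines, against 65.9% and 59.0%. For Cas9 and Suz12F2 neurospheres the lower interval bounds were 90.2% and 93.4% for H3K4me3 and 74.2% and 86.2% for H3K27ac. For kept H3K27me3 the bound was 81.6% in both lines. These bounds treat neighbouring peaks as independent, so no conclusion is drawn from their place beside the list shares. For kept H3K27me3 the list is also unlike the windows: 65.8% of it touched no Cas9 tumour region, against 0 of 17 here. Gfi1 antibody regions covered 61.3% of the windows in Cas9 and 52.8% in Suz12F2 neurospheres.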

How the data were processed

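The 11 deposited lists of regions come from chromatin immunoprecipitation of 8 tumour and 6 neurosphere samples, of which 3 are inputs not used here. Reads were aligned to mm9, and the submitters' processing notes name BWA 0.5.9-r26, Picard, SAMtools, R 2.14.0 and SICER 1.1. Per the names of the deposited files, islands of H3K27me3, the Cas9 antibody and the Gfi1 antibody were built from 200 bp windows with 600 bp gaps at a false discovery rate of 0.00001. For H3K4me3 and H3K27ac peaks no caller is named by the labels. Each region carries a score from the authors, used only to rank regions within a deposited list. Depth is unknown.

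Starts were written from 1, and 1 bp was added to island ends. Regions sharing at least 1 bp were counted as overlapping (Python 3.11.15, numpy 2.4.6, scipy 1.17.1, drawn with matplotlib 3.10.9). Overlaps were checked against bedtools 2.31.1 for 110 pairs of lists, with 0 differing, and tested on simulated data, where 2000 of 2000 planted regions were recovered. With 1 library per group no test was made, and shares have 95% Wilson intervals. The members and lists were chosen with earlier results of these data known. The text names every region where a list has 6 or fewer in a cluster and otherwise the 3 of highest score, all kept H3K27me3 regions, all Cas9 peaks of H3K4me3 and H3K27ac, and regions at a window edge. Other regions and positions named were chosen after their values were seen. Genes, cell markers and the Ezh2 locus were not matched, since no mm9 annotation was used. Alternatives were lists cut to the same number of regions, the upper 50% of scores, an overlap of at least 50% of a region, regions within 5 kb merged, windows widened by 50 kb, regions of at least 1 kb, removal of regions at Cas9 antibody regions and, added after seeing the data, peaks within 500 bp counted as shared.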

Additional observations from a re-analysis of the deposited data

How the results depend on the processing

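No paired analysis was possible because every group held 1 library. The ratio of H3K27me3 cover in the knockout to that in Cas9 cells, 0.0714, was 0.0453 with the upper 50% of scores, 0.0578 with widened windows and 0.253 without regions at Cas9 antibody regions, which by construction took away 507 of the 691 kb in Cas9 cells (6 of 30 regions). H3K4me3 peaks called in the knockout alone, 51, were 10 with the upper 50% of scores, 31 after merging and 2 at 1 kb or more. H3K27ac peaks called there alone, 24, were 5, 14 with lists of equal numbers and 0 at 1 kb or more. The share of H3K4me3 peaks with H3K27ac, 42.6%, was 30.0% with the upper 50% of scores, 64.0% with equal numbers, 61.8% after merging and 0% at 1 kb or more. By construction the last could only be 0%, since the longest H3K27ac peak of the windows had 853 bp. The whole-list share of 61.9% belongs to the lists as deposited. It was not recomputed under these settings, so the altered values cannot be set against it. The share in kept H3K27me3, 16.7%, was 33.3% with equal numbers and 50.0% at 1 kb or more. Few H3K4me3 peaks were left under both settings, with 2 at 1 kb or more. The Gfi1 antibody ratio, 0.862, was 0.945 with the upper 50% of scores, 0.885 after merging, 0.839 with widened windows and 0.789 without regions at Cas9 antibody regions. That removal by construction took away 61.8 of 466 kb in Cas9 and 82.6 of 401 kb in Suz12F2 neurospheres. The Hoxd ratio reversed to 1.07 with the upper 50% of scores. Cas9 antibody regions, 8, were 2 with the upper 50% of scores and with equal numbers. Where no construction is named, the cause was not tested. The other 29 values over all windows moved less than their spread or 1.5 times. Of 189 values for single clusters or labels 132 did likewise, 19 moved higher, 37 lower and 1 reversed. Counting peaks within 500 bp as shared, an alternative chosen after seeing the data, left 50 H3K4me3 and 24 H3K27ac peaks. The depth behind these counts is unknown.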

Other observations

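Outside the windows the clusters differed more from each other than inside. In the 100 kb beyond each edge, H3K27me3 of Cas9 tumour cells covered 84.0% on the anterior and 69.4% on the posterior side of Hoxc, and 69.4% and 59.4% at Hoxb. At Hoxa it covered 9.40% and 7.80%, and at Hoxd 0% on both sides. In the knockout 0% was covered in all 8 flanks, so no kept H3K27me3 lay within 100 kb of a window. Active marks were listed in 3 of the 8 flanks. The posterior side of Hoxb held 3 H3K4me3 and 2 H3K27ac peaks in Cas9 cells and 4 and 2 in the knockout, and each side of Hoxd held 1 of each mark in both. Of these, 1 H3K4me3 peak, on the posterior side of Hoxb, and no H3K27ac peak was called in the knockout alone.

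Gfi1 antibody regions of the neurospheres were also uneven between flanks. In Cas9 neurospheres they covered 58.0% of the anterior and 20.8% of the posterior flank of Hoxc, 49.8% and 55.4% at Hoxb, 5.40% and 5.80% at Hoxa, and 2.00% and 1.40% at Hoxd. In Suz12F2 neurospheres the values were 47.2% and 3.60%, 12.4% and 38.8%, 13.8% and 10.8%, and 3.80% and 2.80%. Cover was thus lower in Suz12F2 neurospheres in the 4 flanks of Hoxb and Hoxc and higher in the 4 flanks of Hoxa and Hoxd, with 1 library per group and no test.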
